A study of Drosophila melanogaster with 6 samples.

Results

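Serine proteases and serpins are described here in tumors of the Drosophila salivary gland imaginal ring. Members were taken from the authors' deposited comparison of tumor with control as genes whose symbol starts with Spn or SP and a digit, SPH or Jon, or whose gene name contains serine protease, serpin or trypsin. This rule found 24 of the 6156 genes the authors list, namely 15 serpins and 9 genes counted here as proteases or protease homologs. The 9 include SP1029 and SP1173, taken by symbol alone, of which SP1029 is known as an aminopeptidase and not a serine protease. RNA had been sequenced from 3 NICD tumor samples (Actts>GFP+NICD, labelled as 7 days at 18 °C and then 7 days at 29 °C) and 3 control samples (Actts>GFP, labelled as larvae of the last instar). The imaginal ring is a narrow band of diploid imaginal precursors where the salivary gland meets its duct, and NICD is the intracellular domain of Notch. The comparison asked how NICD overexpression changes the transcripts of these bulk samples. Whether the groups are alike in cell make-up was not tested, and all 12 listed salivary gland secretory markers were lower in tumor. Both groups carried the ubiquitous actin driver and GFP, with Gal80ts, a temperature-sensitive repressor, setting the time of expression, and this driver is not specific to ring cells. For controls the labels state neither days nor temperatures, so genotype, larval age and temperature cannot be told apart.

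Serine proteases cut other proteins with a catalytic serine, and many are secreted as inactive zymogens that activate each other in cascades. In the fly hemolymph such cascades process Spätzle, the ligand of the receptor Toll, and activate prophenoloxidases, the enzymes of melanization. Serpins are suicide inhibitors that trap their target protease, and homologs named SPH resemble the enzymes but lack a complete catalytic site. Fat body and blood cells are known sources of these secreted proteins, and digestive trypsins and Jonah proteases are made in the gut.

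The files used here hold no value per sample, so folds stand without an SD, the depth per library is unknown, and the agreement of the 3 samples of a group could not be examined. Adjusted p-values are those of the authors' deposited table. They rest on the spread between samples, which the labels do not name as separate animals or pools. Whether they test against no change or against a minimum fold is not settled. A log2 fold change is tumor over control, so a positive value means higher in tumor. The mean level is in CPM, counts per 1000000 reads averaged over all libraries. Levels per group were estimated from the mean and the fold, and rest on the authors' scaling, which is not known. Over all listed genes these estimates summed to 351471 CPM in tumor and 1224976 CPM in control, so they are not shares of reads.

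Both classes were divided between the directions. By the authors' deposited table, 14 members were higher and 10 lower in tumor, where 34.0% and 31.6% of the 9384 tested genes were called higher and lower. Every listed gene had been called, at an adjusted p below 0.05, and 65.6% of tested genes were called in either direction, so the count of 24 says nothing by itself. Among serpins 9 were higher and 6 lower, of which Spn42Da and Spn43Ab turn to higher if both groups are set to equal estimated totals of the listed genes. Among proteases and homologs 5 were higher and 4 lower, of which HtrA2, Sp7 and grass turn on that scale. Without SP1029 and SP1173, taken by symbol alone, 3 were higher and 4 lower. Equal totals add 1.80 to each log2 value, while the median of all genes listed as lower was -1.55. Most of those genes thus turn to higher too, so counts on that scale say little about the members. The share higher was 58.3% of members and 51.8% of all listed genes. The median log2 fold change was 1.12 over members and 0.57 over all listed genes, and centring on the latter turned no member.

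Larger changes were also found on both sides. All members are listed genes, so the 6156 listed genes are the like base, while tested genes include those not called. At least 2-fold, 13 members were higher and 7 lower per the authors' deposited table. Of all listed genes 2502 and 2209 passed this limit in those directions (26.7% and 23.5% of tested genes, 50.2% in either). With an adjusted p below 0.01, 13 members were higher and 7 lower. Of all listed genes 2460 and 2422 passed (26.2% and 25.8% of tested genes, 52.0% in either direction). The 14 higher members had a median log2 fold change of 2.06 (1.75 for all genes listed as higher), and the 10 lower members -1.74 (-1.55 for all genes listed as lower).

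**Figure D1:**
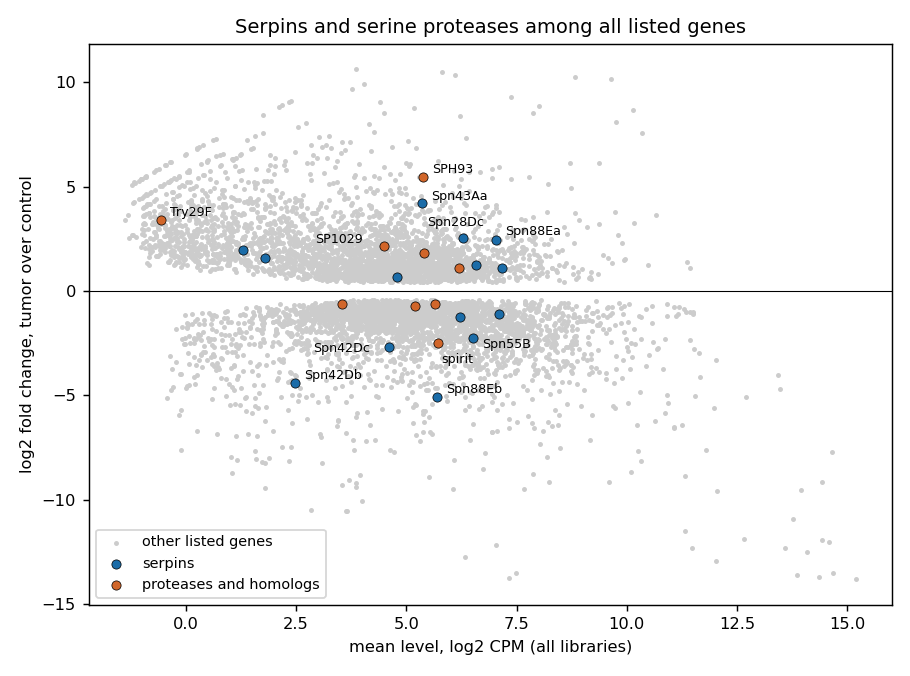
Log2 fold change of tumor over control (vertical axis) against mean log2 CPM over all libraries (horizontal axis) for each gene of the authors' deposited table, with serpins in blue, proteases and homologs in orange and other genes in gray. Members with a log2 fold change of at least 2 in size are named, Spn77Bb and other genes fitted at 0 in a group are left out, and members lie on both sides of the line at 0 (5 lower members turn to higher on equal estimated totals).

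Of the 15 listed serpins 9 were higher, and 3 of these, grouped here after their values were seen, are known to restrain melanization. Spn28Dc, which restrains phenoloxidase activity after wounding, was 5.76-fold higher (a log2 change of 2.53, adjusted p = 0.000216) per the authors' deposited table. Its estimated level was 133 CPM in tumor and 23.2 CPM in control. Spn77Ba, which holds back melanization in the tracheal system, was 2.35-fold higher (a log2 change of 1.24, adjusted p = 0.000698), with estimates of 135 CPM in tumor and 57.3 CPM in control from the authors' deposited table. Spn27A, an inhibitor of the Toll-activating protease Easter and of melanization, was 2.18-fold higher (a log2 change of 1.12, adjusted p = 0.00052) per the authors' deposited table. Its estimated level was 198 CPM in tumor and 90.9 CPM in control. Of the 3, Spn28Dc rose by the widest margin. They were picked from the higher serpins, so their shared direction is no result.

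Spn88Ea and Spn42Dd, which have been linked to Toll signaling, were higher as well. Spn88Ea, also needed for wing expansion in the adult, was 5.44-fold higher (a log2 change of 2.44, adjusted p = 6.11e-05) per the authors' deposited table, estimated at 220 CPM in tumor and 40.5 CPM in control. Spn42Dd was 1.60-fold higher (a log2 change of 0.68, adjusted p = 0.00239), the smallest rise of any member per the authors' deposited table. Its estimated level was 33.8 CPM in tumor and 21.1 CPM in control. It lay 0.11 above the median of the listed genes on the log2 scale.

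The largest rises among serpins belonged to genes with no role stated here. Spn43Aa was 18.3-fold higher (a log2 change of 4.20, adjusted p = 1.55e-05) per the authors' deposited table, estimated at 78.2 CPM in tumor and 4.26 CPM in control. Spn77Bb had a mean of only 0.521 CPM and was fitted at 0 in control per the authors' deposited table, so no fold is given (adjusted p = 0.00157). Spn43Ad and Spn42De, both scarce at means of 2.45 and 3.47 CPM, were 3.96-fold and 2.98-fold higher per the authors' deposited table.

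Serpins that fell included the steepest fall of any member. Spn88Eb was 33.6-fold lower (a log2 change of -5.07, adjusted p = 8.85e-06) per the authors' deposited table, estimated at 3.00 CPM in tumor and 101 CPM in control. Spn42Db was 20.9-fold lower (a log2 change of -4.38, adjusted p = 1.24e-05), at an estimated 0.511 CPM in tumor and 10.7 CPM in control from the authors' deposited table. Next came Spn42Dc, 6.31-fold lower (a log2 change of -2.66, adjusted p = 1.43e-05) per the authors' deposited table, with estimates of 6.68 CPM in tumor and 42.1 CPM in control. Spn55B was 4.68-fold lower (a log2 change of -2.23, adjusted p = 7.46e-05) per the authors' deposited table, with estimates of 32.3 CPM in tumor and 151 CPM in control.

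The furin inhibitor gene Spn42Da was 2.15-fold lower (a log2 change of -1.10, adjusted p = 0.000532) per the authors' deposited table, estimated at 87.0 CPM in tumor and 187 CPM in control. Spn42Da has 11 annotated transcripts, which a fold of the whole gene does not separate. Furins are proprotein convertases of the secretory pathway, and the furin gene Fur2, not a member, was 9.09-fold higher per the authors' deposited table, while Fur1, the other furin gene, was not in the table. Spn43Ab was 2.37-fold lower (a log2 change of -1.25, adjusted p = 0.0257) per the authors' deposited table, estimated at 43.8 CPM in tumor and 104 CPM in control. On equal estimated totals of the listed genes Spn42Da and Spn43Ab had log2 values of 0.70 and 0.55, higher in tumor.

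Among the 15 listed serpins the order within a group differed between tumor and control. Only called genes are ranked, and 12 of 27 annotated Spn genes were not in the table. A differing order is thus partly fixed by the listing, and an unlisted serpin could stand high in both groups. Per 1000 bases of transcript, the highest estimated levels in tumor were those of Spn88Ea (145 CPM), Spn27A (103), Spn28Dc (74.4), Spn77Ba (67.7) and Spn43Aa (60.4). The highest in control were those of Spn55B (117 CPM per 1000 bases), Spn42Da (114), Spn43Ab (78.3), Spn88Eb (70.6) and Spn27A (47.2). The order within a group does not depend on the scaling between groups. Summed over the 15 serpins, the estimates were 982 CPM in tumor and 836 CPM in control, a ratio of 1.17 that turned to 0.957 without Spn88Ea. Unlike the order, such sums rest on the scaling between groups. Equal estimated totals of the listed genes would raise tumor over control by 1.80 on the log2 scale. The 9 higher serpins summed to 808 CPM in tumor and 240 CPM in control, and the 6 lower serpins to 173 CPM in tumor and 596 CPM in control.

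**Figure D2:**
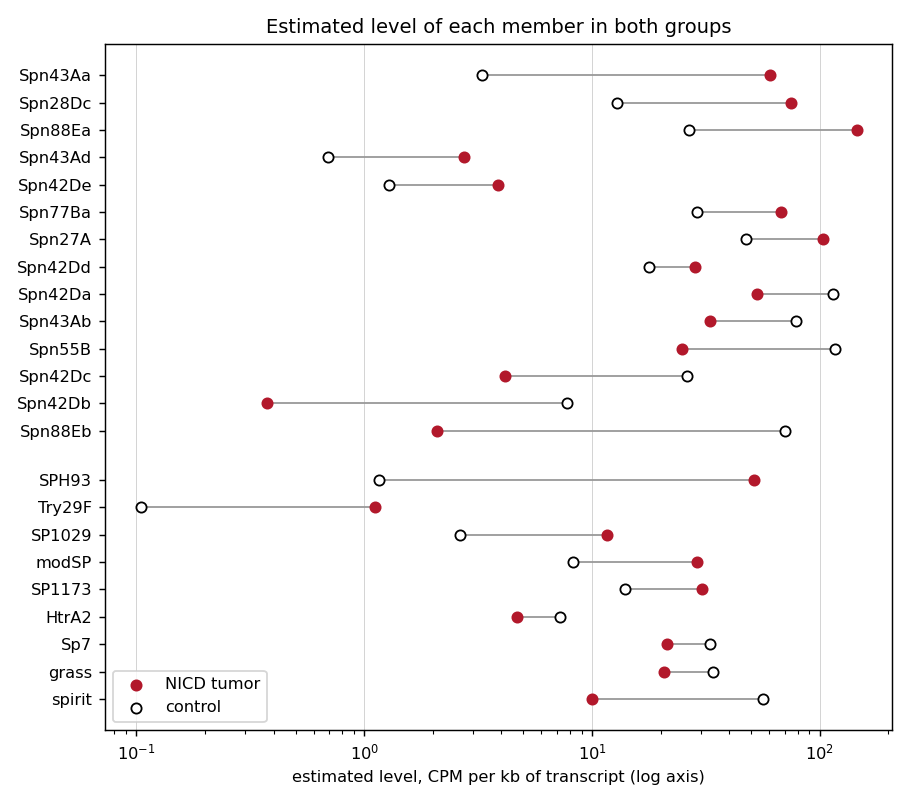
Estimated level of each member in NICD tumor (filled red) and control (open), in CPM per 1000 bases of transcript on a log axis, with serpins above and proteases and homologs below, each sorted by fold change. Spn88Eb was at 2.10 in tumor and 70.6 in control, while SPH93 was at 51.6 in tumor and 1.16 in control. Spn77Bb, fitted at 0 in control, is left out, and on equal estimated totals Spn42Da, Spn43Ab, HtrA2, Sp7 and grass would be higher in tumor.

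Several serpins sit side by side in the genome, and the direction changed within 3 groups of neighbors. By gene order in the NCBI table (Release 6 plus ISO1 MT), the 5 genes Spn42Da to Spn42De follow each other, with no other gene starting between. In the Ensembl annotation the antisense gene asRNA:CR44169 overlaps both Spn42Da and Spn42Db. The first 3 of these 5 serpins were lower in tumor, with log2 fold changes of -1.10, -4.38 and -2.66 per the authors' deposited table. The last 2 were higher, with 0.68 and 1.58. Spn88Ea and Spn88Eb are direct neighbors with log2 fold changes of 2.44 and -5.07 per the authors' deposited table, the widest gap between neighbors. In the 43A group, Spn43Aa (4.20) and Spn43Ad (1.99) were higher and Spn43Ab (-1.25), which lies between them, lower per the authors' deposited table. Next to Spn43Ad lies nec, which encodes the serpin Necrotic of the Toll cascade and was not in the table. In the 77B group both listed members, Spn77Ba and Spn77Bb, were higher. On equal estimated totals Spn42Da and Spn43Ab turn to higher, while Spn42Db, Spn42Dc and Spn88Eb stay lower at -2.58, -0.86 and -3.27 (log2).

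**Figure D3:**
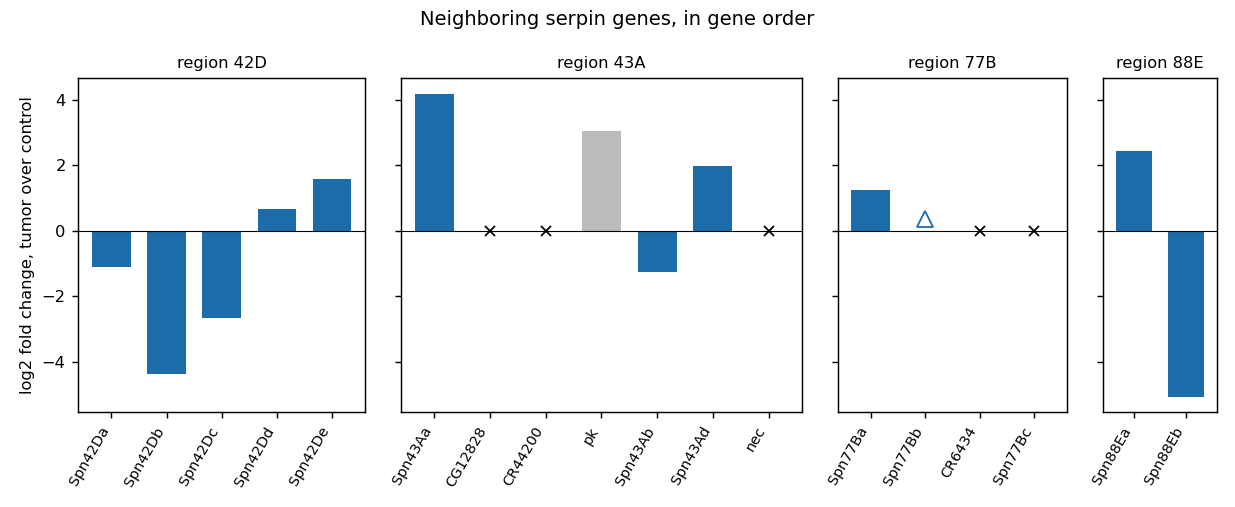
Log2 fold change of tumor over control for neighboring genes in gene order, 1 panel per serpin group, with serpins in blue and another listed gene (pk) in gray. The open triangle marks Spn77Bb, higher with control fitted at 0, and crosses mark genes not in the table. Bars change side within the 42D, 43A and 88E groups (on equal estimated totals, Spn42Da and Spn43Ab turn to higher).

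Shared and overlapping sequence limits some of these values. In the Ensembl annotation of BDGP6, 8 members share exon bases with another gene, 5 of them with a gene on the opposite strand, and the strand setting of the counts is not given in the sources used here. Spn42Dc and Spn42Dd share 63 exon bases on the same strand. Spn43Aa shares 116 exon bases with CG12828, and Spn42Da and Spn42Db share 281 and 380 with the antisense gene asRNA:CR44169, all on opposite strands. Spn43Ab and Spn43Ad lie within introns of pk, which was itself higher by a log2 fold change of 3.06 per the authors' deposited table. How reads between similar neighboring serpins were assigned is not known.

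Transcript lengths were close in serpins of either direction, unlike in the listed genes at large. Higher and lower serpins had median annotated transcript lengths of 1432 and 1401 bases. Over the authors' deposited table these medians were 2785 bases for genes listed as higher and 1319 bases for genes listed as lower. These lengths are a description with no test.

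Among the proteases, the genes of the Toll-activating cascade went both ways. The gene modSP encodes the apical protease that relays recognition of microbes, and it was 3.51-fold higher (a log2 change of 1.81, adjusted p = 0.000301) per the authors' deposited table. Its estimated level was 66.1 CPM in tumor and 18.9 CPM in control. Grass, which acts after ModSP, was 1.63-fold lower (a log2 change of -0.71, adjusted p = 0.00156) per the authors' deposited table, estimated at 28.1 CPM in tumor and 45.9 CPM in control. Another protease of this cascade, spirit, was 5.67-fold lower (a log2 change of -2.50, adjusted p = 1.4e-05), at an estimated 15.7 CPM in tumor and 89.1 CPM in control from the authors' deposited table. Sp7, which activates prophenoloxidase, was 1.55-fold lower (a log2 change of -0.63) and nearest to the limit of 0.05 of all members (adjusted p = 0.0444 per the authors' deposited table). Its estimated level was 39.3 CPM in tumor and 60.9 CPM in control. On equal estimated totals grass and Sp7 had log2 values of 1.09 and 1.17, higher in tumor, and spirit had -0.70.

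The largest rise of a member with a fold was that of a protease homolog. SPH93 was 44.5-fold higher (a log2 change of 5.48, adjusted p = 3.52e-05) per the authors' deposited table, estimated at 81.9 CPM in tumor and 1.84 CPM in control. Try29F, a trypsin gene, was 10.7-fold higher (a log2 change of 3.41, adjusted p = 0.0156) per the authors' deposited table, at an estimated 1.23 CPM in tumor and 0.115 CPM in control. HtrA2, a mitochondrial protease of protein quality control and cell death, was 1.54-fold lower (a log2 change of -0.63, adjusted p = 0.0289) per the authors' deposited table, and higher by a log2 value of 1.18 on equal estimated totals. Its estimated level was 9.17 CPM in tumor and 14.2 CPM in control.

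The rule also took 2 genes by symbol alone. SP1029, known as an aminopeptidase of the metallopeptidase type and not a serine protease, was 4.40-fold higher (a log2 change of 2.14, adjusted p = 3.94e-05) per the authors' deposited table, estimated at 36.7 CPM in tumor and 8.35 CPM in control. SP1173, whose name gives no enzyme class, was 2.18-fold higher (a log2 change of 1.12, adjusted p = 0.00304) per the authors' deposited table, estimated at 101 CPM in tumor and 46.2 CPM in control. Without them 3 proteases and homologs were higher and 4 lower.

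Many relatives were not in the table. Of 27 genes that NCBI annotates with Spn symbols, 15 were listed, and of 16 Jonah protease genes none was. Over all tested genes 65.6% were listed, which is not a like base, since annotated genes may include some that were not tested. Of 13 digestive trypsin and chymotrypsin-type genes found by name Try29F alone was listed. A gene missing from the table was either tested and not called or not tested, which the files used here do not separate.

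The other genes of Toll signaling and melanization also went both ways. Of 14 cascade proteases found by name, members included, 8 were listed, 3 higher and 5 lower, and 6 of the 8 are higher on equal estimated totals. Over all tested genes 65.6% were called, not a like base for genes found by name, which need not have been tested. On the deposited scale 51.8% of all listed genes were higher. On equal estimated totals most genes listed as lower turn to higher, so that share is larger there. Beyond the members, psh, a protease that senses microbial proteases, was 9.997-fold lower, and its relative Hayan, which leads to melanization, 2.43-fold lower per the authors' deposited table. The embryonic dorsoventral proteases ea and gd were 2.81-fold and 8.93-fold higher per the authors' deposited table, gd at a mean of 0.718 CPM. Among recognition genes PGRP-SD, GNBP3 and PGRP-SA were 14.6-fold, 5.04-fold and 1.55-fold lower per the authors' deposited table.

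Genes that act after the proteases are given here with their folds, and no difference between steps was tested. The receptor gene Tl and the NF-kappaB genes dl and Dif were 2.67-fold, 2.51-fold and 4.77-fold higher, and the antifungal peptide gene Drs 3.53-fold higher, per the authors' deposited table. The prophenoloxidase genes PPO2, PPO1 and PPO3 were 71.3-fold, 43.8-fold and 11.4-fold higher per the authors' deposited table. PPO1 and PPO2 are also entries of the hemocyte marker list, of which 11 of 12 listed genes were higher. Ddc, yellow-f and yellow-f2, which act in pigment synthesis, were 3.34-fold, 5.04-fold and 7.50-fold lower per the authors' deposited table. Over these pathway genes other than proteases, 13 of 21 were listed, 7 higher and 6 lower. For comparison, 65.6% of all tested genes were called, a base that leaves out untested genes, and 51.8% of all listed genes were higher. That 51.8% is on the deposited scale and is larger on equal estimated totals. On equal estimated totals 9 of the 13 were higher and 4 lower because PGRP-SA and Ddc turned. The 8 not in the table included spz, Myd88, tub, pll and cact.

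**Figure D4:**
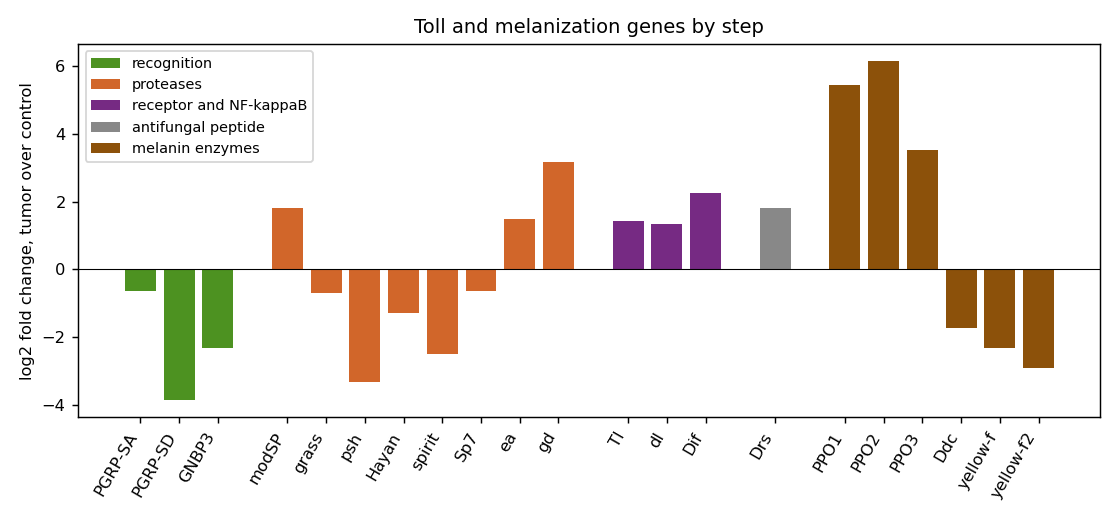
Log2 fold change of tumor over control for the listed Toll and melanization genes by step. All 3 recognition genes, 5 of 8 proteases and Ddc, yellow-f and yellow-f2 are below 0, while the receptor, both NF-kappaB genes and the 3 PPO genes are above it. Of 21 pathway genes other than proteases, 7 were higher, 6 lower and 8 not in the table, among them spz, Myd88, tub, pll and cact. No difference between steps was tested. On equal estimated totals PGRP-SA, grass, Hayan, Sp7 and Ddc would be above 0.

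Markers of other tissues and of salivary gland secretory cells moved between the groups at the same time. Of all tested genes 65.6% were called, a base that leaves out untested genes. On the deposited scale 51.8% of all listed genes were higher. All 11 listed fat body markers of 16 were lower, with summed estimates of 1811 CPM in tumor and 194245 CPM in control from the authors' deposited table (10 of 11 lower on equal estimated totals). Hemocyte markers were higher in 11 of 12 listed genes of 15, at 1988 CPM in tumor and 272 CPM in control, NimC4 being fitted at 0 in control. All 9 listed tracheal markers of 10 were higher, at 1287 CPM in tumor and 310 CPM in control, and all 12 listed salivary gland secretory markers of 13 lower, at 270.1 CPM in tumor and 278739 CPM in control. Of 10 muscle markers 8 were listed, all lower, at 339 CPM in tumor and 2874 CPM in control (7 of 8 on equal estimated totals). Gut markers were listed for 5 of 14 genes, 3 higher and 2 lower (4 and 1 on equal estimated totals), at 14.0 CPM in tumor and 43.0 CPM in control. No marker other than NimC4 was fitted at 0. In such bulk samples fewer cells of a type and less RNA per cell cannot be told apart, and the part of these tissues in the changes of proteases and serpins was not tested.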

How the data were processed

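RNA was isolated with a Zymo kit for Illumina libraries, per the labels' protocols. The counter was featureCounts and the comparison tool DESeq2, per the submitters' processing notes, while the column names are those that edgeR's test against a minimum fold gives, per the file headers. Which tool made the values is not settled, and aligner, build, annotation, strand setting and filters are not given in the sources. For each called gene the authors deposited log2 fold changes (shrunken and unshrunk) and the mean level as log2 CPM. The authors' p-value and adjusted p stand beside them. A sheet with the numbers of calls gives 9384 tested genes under headings 1.2 and 2. The deposited rows number 6156, the total of calls under heading 1.2, with a largest adjusted p of 0.0499. The adjusted p equals the Benjamini-Hochberg value over the tested genes within 1% for 98.7% of rows.

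With no value per sample, no test was run, and the authors' deposited adjusted p below 0.05 was the call. The members' shrunken and unshrunk values differ by at most 0.049 on the log2 scale, except in Spn77Bb, whose unshrunk value exceeds 100 and marks a group fitted at 0. Group CPM was estimated with the mean CPM taken as the average of both groups. Lists of 148 symbols (145 found) were matched by NCBI gene ID. Full values went to members changed at least 4-fold, above the median level or in a role list, except that Spn77Bb has no fold. Of genes that are no members, the rule named the 10 with the largest changes in the role lists, and the others of these lists (and pk, by its position) were chosen after their values were seen. The members and lists were chosen with earlier results of these data known. Python 3.11.15, pandas 2.3.3 and matplotlib 3.10.9 were used, and the matching and the CPM estimate were tested on simulated data.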

Additional observations from a re-analysis of the deposited data

How the results depend on the processing

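Of 42 counts of members, serpins or proteases under other settings, 36 were within 1.5 times the reported count. Lower proteases and homologs numbered 2 with an adjusted p below 0.01 and 1 at a 2-fold minimum, and higher ones 3 when membership rested on the gene name alone. The median log2 fold change of members was 1.18 with an adjusted p below 0.01, 1.41 at a 2-fold minimum, 0.68 among members above the table's lower quartile of expression, 0.90 by gene name alone and 0.68 as a mean. Scaling was examined after seeing the data. Centring on the listed genes gave a median of 0.55 and turned none of the 48 genes followed singly. Of these genes 6 had an adjusted p that was not below 0.01. Equal estimated totals of the listed genes (a shift of 1.80) gave a median of 2.92, 5 lower members, 8 higher proteases and homologs and 1 lower, and turned 9 genes to log2 values of 1.18 (HtrA2), 1.17 (Sp7), 1.09 (grass), 0.70 (Spn42Da), 0.55 (Spn43Ab), 0.52 (Hayan), 1.17 (PGRP-SA), 0.92 (ome) and 0.064 (Ddc). No paired analysis was possible because the files used here hold no column per sample, and for the same reason no replicate could be left out. Depth per library is unknown, so no limit for unlisted genes can be given.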

Other observations

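Other serine proteases with a familiar name, came from a list of 20 symbols. Of 19 found by name 11 were not in the table and 8 were listed. Of the 8, 6 were higher and 2 lower per the authors' deposited table, where 51.8% of all listed genes were higher. On equal estimated totals all 8 are higher, but most genes listed as lower turn on that scale, so this count says little. The rhomboid gene rho, an intramembrane protease that releases EGF receptor ligands, was 22.6-fold higher per the authors' deposited table, at an estimated 128 CPM in tumor and 5.67 CPM in control. Ser7 was 22.6-fold higher at a mean of 1.82 CPM per the authors' deposited table. Np, a transmembrane protease of tracheal tubes, and mas, a protease homolog of muscle attachment, were 4.92-fold and 5.05-fold higher, and Corin 4.80-fold higher, per the authors' deposited table. Besides HtrA2, the lower gene was ome, a dipeptidyl peptidase gene, 1.84-fold lower (log2 fold change -0.88, adjusted p = 0.0389) per the authors' deposited table. Np, mas, Corin and ome were picked once their values had been seen.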
